A study of Mus musculus with 9 samples.

Results

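The miR-106b-25 and miR-106a-363 clusters are the paralogs of the miR-17-92 cluster, and 7 of their mature miRNAs were followed here in exosomes released by TCMK-1 cells, an established line of mouse renal tubular epithelial cells. The 7 were chosen by name from the 1978 mature miRNAs listed: mmu-miR-106b-5p, mmu-miR-106b-3p, mmu-miR-93-5p and mmu-miR-25-3p of the miR-106b-25 cluster, and mmu-miR-106a-5p, mmu-miR-20b-5p and mmu-miR-363-3p of the miR-106a-363 cluster. The study asked how BMAL1, a transcriptional activator of the circadian clock, alters the miRNAs that tubular cells export. H/R-LV-BMAL1 cells carried a lentivirus that expresses BMAL1 from a CMV promoter and went through hypoxia/reoxygenation (H/R), with 24 h of hypoxia at 1% O2 followed by 12 h of reoxygenation at 21% O2. H/R-LV-NC cells carried the empty control lentivirus and had the same H/R, and LV-NC cells carried the control lentivirus and stayed in normal culture. Virus was given at a multiplicity of infection of 100, the vector also carries EGFP and a puromycin resistance gene, and no group had BMAL1 virus without H/R. BMAL1 mRNA is not measured by this assay. Each group had 3 libraries of exosomal small RNA. The labels leave unsaid whether the libraries of a group are separate cultures, and the p-values therefore reflect variation among libraries that may be technical.

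The miR-106b-25 cluster is transcribed with Mcm7, a subunit of the helicase that opens DNA for replication, and the miR-17-92 group as a whole is best known for promoting proliferation and survival. A miRNA finds its targets mainly through its seed, bases 2 to 8 counted from the 5′ end. miRNAs with the miR-17 seed repress the cell cycle inhibitor Cdkn1a, and miRNAs with the miR-25 seed repress the pro-apoptotic gene Bcl2l11 (Bim).

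The 7 mature sequences are shown because the seeds set which members can be read as one family. They come from RefSeq (GRCm38.p6), 5′ to 3′, with the seed in capitals.
miR-106b-5p: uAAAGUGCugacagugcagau
miR-93-5p: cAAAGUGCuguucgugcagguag
miR-106a-5p: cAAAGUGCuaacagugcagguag
miR-20b-5p: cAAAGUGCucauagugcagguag
miR-25-3p: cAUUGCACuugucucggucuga
miR-363-3p: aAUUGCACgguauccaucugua
miR-106b-3p: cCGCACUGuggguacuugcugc
The first 4 share the miR-17 seed, and miR-25-3p and miR-363-3p share the miR-25 seed. miR-106b-3p, the other arm of the miR-106b hairpin, has a seed of its own among the 7.

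Relatives outside both clusters are close in sequence, which bears on how surely a read can be assigned. The next 3 sequences, from the miR-17-92 cluster, are shown for that reason, with the seed again in capitals.
miR-17-5p: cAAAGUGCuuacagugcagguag
miR-20a-5p: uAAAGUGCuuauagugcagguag
miR-92a-3p: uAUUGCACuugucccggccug
miR-106a-5p differs from miR-17-5p at 1 base, A10U, counted from the 5′ end with the miR-106a-5p base first. It differs from miR-20b-5p at 2 bases, A10C and C12U. miR-25-3p differs from miR-92a-3p at 3 bases over their shared length, and miR-93-5p differs from miR-20b-5p, the nearest of its seed family, at 3. The sources used here do not say how reads that match several miRNAs were counted, so the low counts of miR-106a-5p and miR-20b-5p beside abundant relatives are uncertain.

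Positions in the deposited table equal those of RefSeq GRCm38.p6 for all 7 members. The 3 hairpins of miR-106b-25 lie within 498 bases of the minus strand of chromosome 5, from 138165321 to 138165818. They sit inside Mcm7 (138164583 to 138172422), where the Mir106b hairpin is intronic in 2 of the 2 annotated transcripts that span it, and Mir93 and Mir25 in 2 of 3. The 6 hairpins of miR-106a-363 lie within 875 bases of the minus strand of chromosome X, from 52741693 to 52742567, next to Kis2, which is annotated as a processed transcript (52742563 to 52744960) and which Mir106a (52742503 to 52742567) alone among them reaches. BMAL1 is known to bind the E-box with its partner CLOCK. The E-box letters CACGTG, which read the same on both strands, were in 0 of the 2 Mcm7 windows and 0 of the 1 Kis2 window of 300 bases around a RefSeq start (250 before and 50 after), against 7.15% of 32851 such windows. These windows do not take in the outer 5′ ends of Mcm7 and Kis2 as printed above, which were not searched. Their lack in a window says only that these letters are not in it.

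Molecules were counted by random tags (unique molecular identifiers, UMIs) that the library kit adds before PCR, which lets copies of one molecule count once. Totals were 3357851 to 4057046 UMIs in H/R-LV-BMAL1 libraries, 807158 to 1447040 in H/R-LV-NC libraries and 977490 to 1147768 in LV-NC libraries. Levels are given as CPM, which is UMIs per 1000000, either of the library's total UMIs or after scaling with edgeR's TMM factor, which takes most miRNAs as unchanged. The factors were 0.558 to 0.94 in H/R-LV-BMAL1 libraries, 1.05 to 1.72 in H/R-LV-NC libraries and 1.03 to 1.07 in LV-NC libraries, and the choice of scale matters here. Over the 1682 miRNAs tested, the median log2 fold change of H/R-LV-BMAL1 over H/R-LV-NC was -0.043 with TMM and -0.87 with total UMIs. The 81 miRNAs with a mean of at least 1000 CPM had medians of 1.01 with TMM and 0.17 with total UMIs. Among 9 markers of the labelled cell type, miR-30a-5p had 5564 to 10910 CPM of total UMIs, miR-192-5p 123 to 212 CPM and miR-194-5p 56.3 to 104 CPM. The others were lower, with miR-204-5p at 5.27 to 24.8 CPM and the 5 miR-200 family members, which mark epithelium, at 2.04 to 40.9 CPM. Of 3 muscle markers, miR-206-3p had 2385 to 3171 CPM, miR-133a-3p 6.12 to 18.6 CPM and miR-1a-3p 0 to 11.7 CPM. In RNA from a pool of exosomes, fewer vesicles that carry a miRNA and less of it in each vesicle cannot be told apart.

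The members differed by orders of magnitude in level. miR-93-5p averaged 25135 CPM of total UMIs over the 9 libraries and ranked 10 to 12 among all miRNAs, and miR-25-3p averaged 14207 CPM and ranked 13 to 16. miR-106b-3p averaged 949.6 CPM and miR-106b-5p 50.2 CPM. The X-linked members were lower: miR-20b-5p averaged 9.38 CPM (rank 1103 to 1586 of 1978), miR-106a-5p 5.69 CPM (rank 1135 to 1867) and miR-363-3p 2.25 CPM (rank 1764 to 1921). In a library there were 8 to 27 UMIs of miR-20b-5p, 4 to 20 of miR-106a-5p and 2 to 7 of miR-363-3p. The 3 X-linked members had together 1 UMI for every 1166 to 4685 UMIs of the miR-106b-25 members with the same seeds, miR-106b-5p, miR-93-5p and miR-25-3p. The order of miR-93-5p, miR-25-3p, miR-106b-3p and miR-106b-5p held with no overlap over the 9 libraries, while the ranges of miR-20b-5p and miR-106a-5p overlapped, as did those of miR-106a-5p and miR-363-3p.

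**Figure D1:**
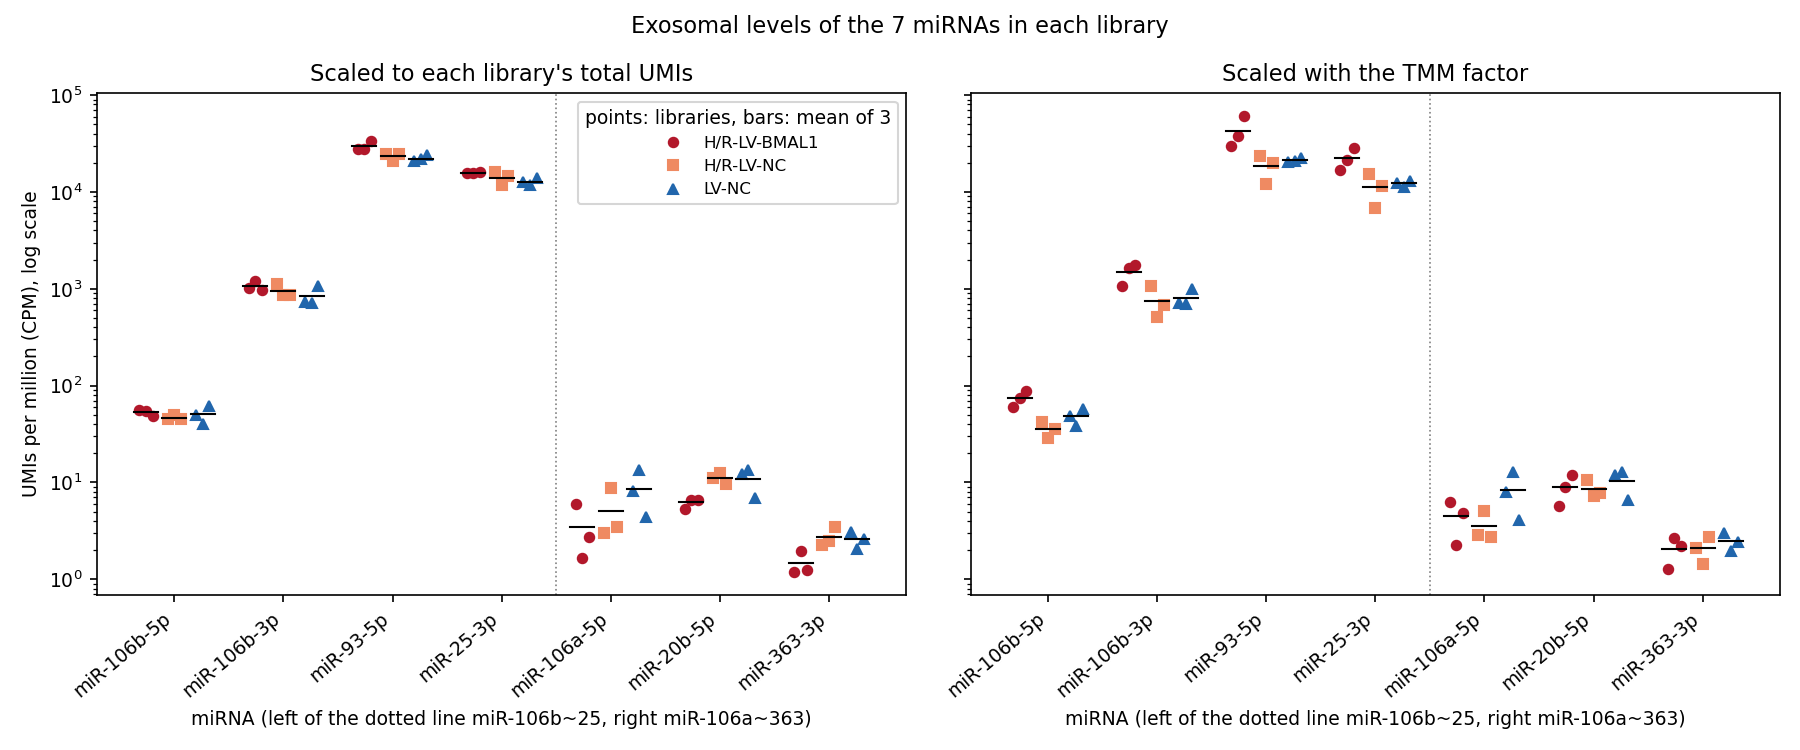
CPM of the 7 members in each library on a log scale, scaled to total UMIs (left panel) and with the TMM factor (right panel); points are libraries and bars the mean of 3. With TMM the 3 H/R-LV-BMAL1 libraries lie above the H/R-LV-NC libraries for all 4 miR-106b-25 members, and with total UMIs for miR-93-5p alone among them.

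Setting H/R-LV-BMAL1 exosomes against H/R-LV-NC exosomes asks what BMAL1 adds under H/R. On the TMM scale all 4 miR-106b-25 members were higher in H/R-LV-BMAL1, by 1.98-fold to 2.30-fold, with no overlap between the groups, but none passed the test across all miRNAs. edgeR's quasi-likelihood test called 0 of the 6 members tested at an adjusted p under 0.05, against 2.38% of all miRNAs (40 of 1682). At an unadjusted p under 0.05 there were 4 members and 468 miRNAs in all. Every H/R-LV-BMAL1 library was above every H/R-LV-NC library for 14.7% of all miRNAs on this scale. The median log2 fold change of the 4 members, 1.02, stood beside 1.01 for the 81 abundant miRNAs, of which 52 had every H/R-LV-BMAL1 library above.

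miR-93-5p, the most abundant member and a carrier of the miR-17 seed, had 29787, 37613 and 60451 CPM scaled by TMM in the H/R-LV-BMAL1 libraries, against 23481, 12152 and 19904 CPM in the H/R-LV-NC libraries. The lowest H/R-LV-BMAL1 library was thus above the highest H/R-LV-NC library, and replicate 3 of H/R-LV-BMAL1 and replicate 2 of H/R-LV-NC were the extremes. The log2 fold change of miR-93-5p was 1.20 (SE 0.321, adjusted p = 0.0669 by edgeR). As CPM of total UMIs it had 27965, 27688 and 33725 in H/R-LV-BMAL1, against 24674, 20794 and 24945 in H/R-LV-NC. The groups did not overlap on this scale either, and the spread was smaller. With total UMIs miR-93-5p rose by 0.34 on the log2 scale (SE 0.103, adjusted p = 0.0342 by edgeR). That call stands beside 30.9% of all miRNAs called on this scale, of which 38 rose and 481 fell. It was the 1 member of the 6 with every H/R-LV-BMAL1 library above every H/R-LV-NC library as CPM of total UMIs. This pattern was shown by 4.76% of all miRNAs and by 37 of the 81 abundant ones. Of those 81, edgeR called 25 higher and 14 lower with total UMIs.

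miR-25-3p, which carries the seed of the miR-25 family, had 16695, 21345 and 28473 CPM scaled by TMM in H/R-LV-BMAL1, against 15179, 6862 and 11615 CPM in H/R-LV-NC. The gap between the groups was narrow, since replicate 1 of H/R-LV-BMAL1 and replicate 1 of H/R-LV-NC nearly met. The log2 fold change of miR-25-3p was 0.98 (SE 0.315, adjusted p = 0.0905 by edgeR). As CPM of total UMIs it had 15673, 15712 and 15885 in H/R-LV-BMAL1, against 15951, 11741 and 14557 in H/R-LV-NC. The H/R-LV-BMAL1 libraries were nearly identical on this scale and overlapped with H/R-LV-NC, at a log2 fold change of 0.16 (adjusted p = 0.264 by edgeR).

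Both arms of the miR-106b hairpin gave similar fold changes. miR-106b-5p, the arm with the miR-17 seed, had 189, 199 and 199 UMIs in H/R-LV-BMAL1 and 60, 40 and 65 UMIs in H/R-LV-NC libraries, which is 60.0, 75.0 and 87.9 CPM scaled by TMM, against 42.5, 29.0 and 35.8 CPM. miR-106b-3p had 1075, 1637 and 1759 CPM scaled by TMM in H/R-LV-BMAL1, against 1058, 509.7 and 679.9 CPM in H/R-LV-NC. For miR-106b-3p the lowest H/R-LV-BMAL1 and the highest H/R-LV-NC library were nearly equal. The log2 fold change was 1.05 for miR-106b-5p (SE 0.324, adjusted p = 0.0828 by edgeR). For miR-106b-3p it was 0.99 (SE 0.340, adjusted p = 0.1 by edgeR). With total UMIs these were 0.20 for miR-106b-5p and 0.17 for miR-106b-3p, and the groups overlapped for both.

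The groups overlapped for the X-linked members on the TMM scale. miR-106a-5p, with the miR-17 seed, had 20, 6 and 11 UMIs in H/R-LV-BMAL1 and 4, 7 and 5 in H/R-LV-NC libraries, at a log2 fold change of 0.36 with a 95% interval of -0.91 to 1.63 (adjusted p = 0.71 by edgeR). That interval takes in the change of each miR-106b-25 member. miR-20b-5p, of the same seed, had 18, 24 and 27 UMIs in H/R-LV-BMAL1 and 15, 10 and 14 in H/R-LV-NC libraries, at 0.048 with a 95% interval of -0.83 to 0.93 (adjusted p = 0.948 by edgeR). The sign turned with total UMIs for both, to -0.46 for miR-106a-5p and -0.81 for miR-20b-5p, and neither was called. As CPM of total UMIs every H/R-LV-BMAL1 library was below every H/R-LV-NC library for miR-20b-5p, as for 44.2% of all miRNAs. miR-363-3p, with the miR-25 seed, had 4, 7 and 5 UMIs in H/R-LV-BMAL1 and 3, 2 and 5 in H/R-LV-NC libraries, too few to enter the test. Its 5 UMIs in H/R-LV-BMAL1 replicate 3 stand for 1.23 CPM with an exact 95% interval of 0.400 to 2.88 CPM, which covers counting error only.

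The ratio of the X-linked members to miR-106b-5p, miR-93-5p and miR-25-3p, which needs no scaling, was lower in H/R-LV-BMAL1 with no overlap. There was 1 X-linked UMI for every 3493, 4236 and 4685 UMIs in the H/R-LV-BMAL1 libraries, against 2482, 1384 and 2384 for H/R-LV-NC. For the LV-NC libraries the numbers were 1435, 1166 and 2714. The log2 difference of H/R-LV-BMAL1 was -1.04 from H/R-LV-NC and -1.33 from LV-NC (exact two-sided permutation p = 0.1 each, the smallest that 3 against 3 libraries allow, and 0.3 after Benjamini-Hochberg adjustment over 30 ratio comparisons). With TMM the median log2 fold change of H/R-LV-BMAL1 over H/R-LV-NC was -0.043 for all 1682 tested miRNAs and 1.01 for the 81 abundant ones. Over LV-NC the medians were 0.023 and 0.78. A typical miRNA thus fell against abundant ones in general, and the share of such ratios without overlap was not counted.

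Calls among the members depended on the tool and on 1 library. DESeq2 called all 4 miR-106b-25 members, with adjusted p = 0.00412 for miR-93-5p, 0.00833 for miR-106b-5p, 0.0183 for miR-25-3p and 0.0267 for miR-106b-3p, beside 17.7% of all miRNAs with an adjusted p. limma-voom called 0 members. Without H/R-LV-BMAL1 replicate 1, edgeR called 139 miRNAs (8% of those tested) and 3 members, which were miR-93-5p (adjusted p = 0.0225), miR-106b-3p (adjusted p = 0.0456) and miR-25-3p (adjusted p = 0.049). Leaving out any other library, LV-NC libraries included, gave 0 calls by edgeR among all miRNAs.

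**Figure D2:**
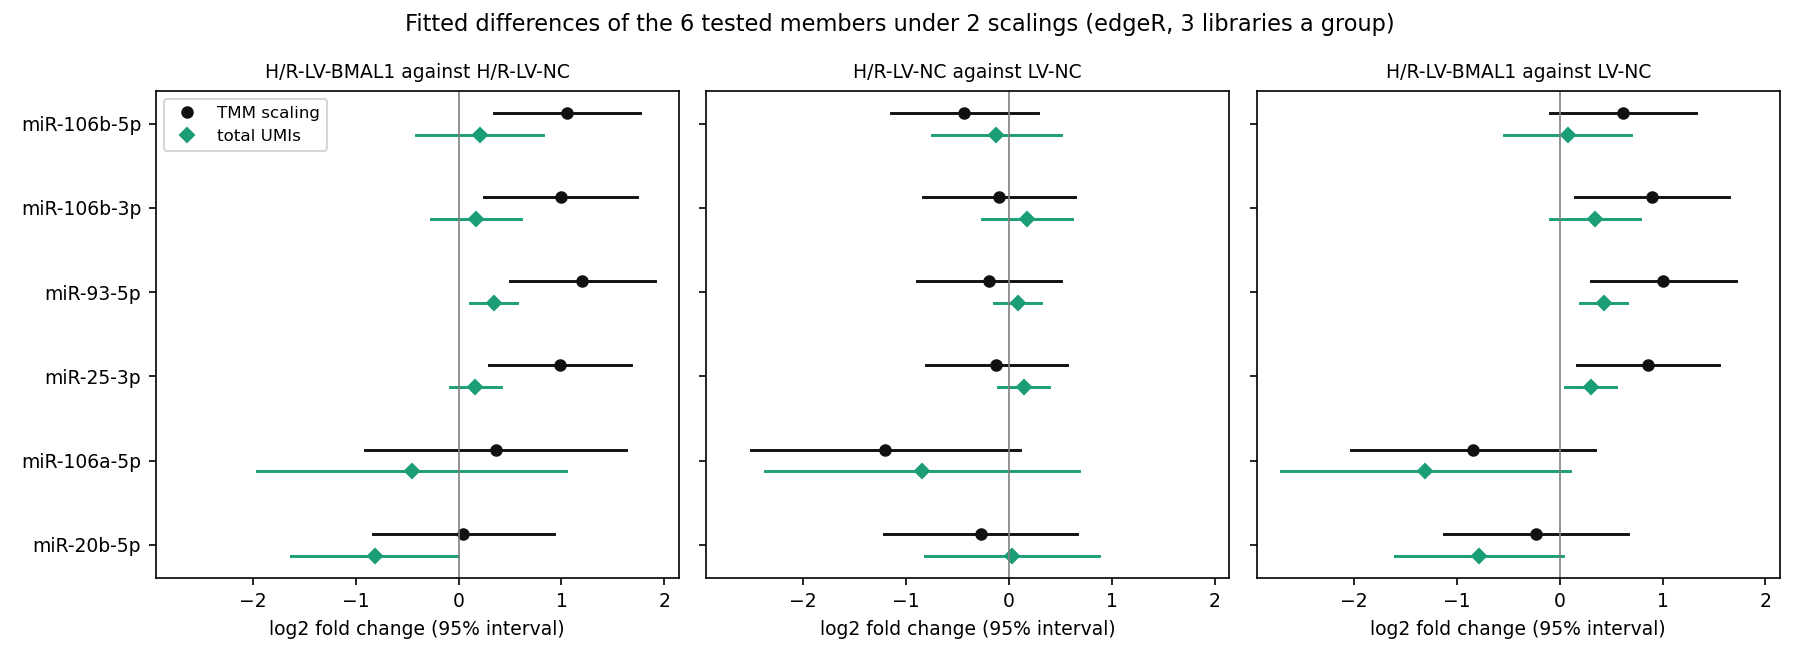
Log2 fold changes of the 6 tested members with 95% intervals derived from the edgeR fit, scaled with TMM (black circles) and by total UMIs (green diamonds), for the 3 comparisons. For H/R-LV-BMAL1 over H/R-LV-NC the 4 miR-106b-25 members lie between 0.98 and 1.20 with TMM and between 0.16 and 0.34 with total UMIs.

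Setting H/R-LV-NC exosomes against LV-NC exosomes asks what H/R alone does, and no member separated these groups. edgeR called 0 of the 6 tested members and 0% of all miRNAs, with 0 members and 121 miRNAs at an unadjusted p under 0.05, and DESeq2 called 0 members and 2 miRNAs. On the TMM scale 0 members had every H/R-LV-NC library below every LV-NC library, against 6.36% of all miRNAs. miR-93-5p had 23481, 12152 and 19904 CPM scaled by TMM in H/R-LV-NC, against 20305, 20887 and 22366 CPM in LV-NC. miR-25-3p had 15179, 6862 and 11615 CPM in H/R-LV-NC, against 12384, 11329 and 12979 CPM in LV-NC on the same scale. For both, H/R-LV-NC replicate 2 was the lowest of the 9 libraries, and the LV-NC libraries lay within the range of the H/R-LV-NC libraries.

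Both arms of miR-106b overlapped between these groups as well. miR-106b-5p had 42.5, 29.0 and 35.8 CPM scaled by TMM in H/R-LV-NC, against 48.6, 38.5 and 57.9 CPM in LV-NC, and miR-106b-3p had 1058, 509.7 and 679.9 CPM in H/R-LV-NC, against 713, 690.3 and 997 CPM in LV-NC. Fitted log2 fold changes were -0.43 for miR-106b-5p, -0.095 for miR-106b-3p, -0.20 for miR-93-5p and -0.12 for miR-25-3p, with SEs of 0.312 to 0.337. The sign turned positive with total UMIs for miR-106b-3p (0.17), miR-93-5p (0.085), miR-25-3p (0.14) and miR-20b-5p (0.031), so no direction is given for these. miR-106a-5p had 4, 7 and 5 UMIs in H/R-LV-NC libraries, against 8, 13 and 5 in LV-NC libraries, at a log2 fold change of -1.20 with a 95% interval of -2.51 to 0.10 (adjusted p = 0.645 by edgeR). miR-20b-5p had 15, 10 and 14 UMIs in H/R-LV-NC libraries, against 12, 13 and 8 in LV-NC libraries, and miR-363-3p had 3, 2 and 5, against 3, 2 and 3.

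H/R-LV-BMAL1 exosomes were also set against LV-NC exosomes, where BMAL1 virus and H/R differ together and whose libraries also serve the other comparisons. On the TMM scale all 4 miR-106b-25 members had every H/R-LV-BMAL1 library above every LV-NC library, a pattern shown by 14.1% of all miRNAs. Their log2 fold changes were 1.01 for miR-93-5p (adjusted p = 0.117 by edgeR), 0.90 for miR-106b-3p (adjusted p = 0.161), 0.86 for miR-25-3p (adjusted p = 0.148) and 0.62 for miR-106b-5p (adjusted p = 0.279). edgeR called 0 of the 6 members, against 0.238% of all miRNAs, with 3 members and 393 miRNAs at an unadjusted p under 0.05. The median of the 4, 0.88, stood beside 0.78 for the 81 abundant miRNAs, of which 49 had every H/R-LV-BMAL1 library above every LV-NC library.

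miR-93-5p had 27965, 27688 and 33725 CPM of total UMIs in H/R-LV-BMAL1, against 20885, 21638 and 23901 CPM in LV-NC. It rose by 0.43 on the log2 scale with total UMIs (SE 0.103, adjusted p = 0.0383 by edgeR), where 6.24% of all miRNAs were called. miR-25-3p had 15673, 15712 and 15885 CPM of total UMIs in H/R-LV-BMAL1, against 12738, 11736 and 13870.4 CPM in LV-NC, at 0.30 (adjusted p = 0.115 by edgeR). These 2 members had every H/R-LV-BMAL1 library above every LV-NC library on this scale, against 6.18% of all miRNAs and 37 of the 81 abundant ones. Of those 81, edgeR called 19 higher and 11 lower with total UMIs. DESeq2 called 1 member, miR-93-5p (adjusted p = 0.0333), beside 9.34% of all miRNAs with an adjusted p. Fold changes of the X-linked members were negative without a call, at -0.84 for miR-106a-5p (adjusted p = 0.37 by edgeR) and -0.23 for miR-20b-5p (adjusted p = 0.779 by edgeR), and that of miR-20b-5p turned to 0.008 without H/R-LV-BMAL1 replicate 1.

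A ratio of 1 miRNA to another within a library does not depend on how libraries are scaled. For each hairpin of miR-106b-25 one arm dominated. miR-93-5p outnumbered miR-93-3p by 72.3 to 236 times and miR-25-3p outnumbered miR-25-5p by 16.6 to 48.2 times over the 9 libraries. In the miR-106b hairpin the 3p arm, which lacks the miR-17 seed, outnumbered the 5p arm by 14.7 to 24.9 times. In the X-linked hairpins, the member was the smaller arm for miR-106a and miR-363 in 9 of 9 libraries, where miR-106a-3p averaged 19.2 CPM and miR-363-5p 16.0 CPM, while miR-20b-5p exceeded miR-20b-3p in 9 of 9. Of 589 hairpins with both arms tested, 16 were more unequal than miR-93, 42 than miR-25 and 54 than miR-106b.

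The excess of the larger arm was greater in H/R-LV-BMAL1 than in H/R-LV-NC, with no overlap, for 2 of the 3 miR-106b-25 hairpins, and greater than in LV-NC for all 3. miR-93-5p over miR-93-3p was 236, 149 and 222 in H/R-LV-BMAL1, against 92.3, 72.3 and 103 in H/R-LV-NC. In LV-NC it was 94.4, 86.7 and 97.3, so that the groups without BMAL1 virus overlapped and every H/R-LV-BMAL1 library was above both. The difference of H/R-LV-BMAL1 from H/R-LV-NC was 1.17 on the log2 scale (2.25-fold). miR-25-3p over miR-25-5p was 48.2, 40.5 and 41.5 in H/R-LV-BMAL1, against 26.6, 17.4 and 25.1 in H/R-LV-NC. The LV-NC libraries had ratios of 19.7, 16.6 and 16.6. The miR-25-3p/miR-25-5p ratio was 1.91-fold higher in H/R-LV-BMAL1 than in H/R-LV-NC (log2 difference 0.93) and 2.47-fold higher than in LV-NC. Each of these has an exact two-sided permutation p of 0.1, the smallest that 3 against 3 libraries allow, and 0.3 after Benjamini-Hochberg adjustment over the 30 ratio comparisons, so that no ratio could reach 0.05.

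Across the 589 hairpins the larger arm stood higher relative to the smaller, with no overlap, in 15.1% when H/R-LV-BMAL1 was set against H/R-LV-NC, and in 15.1% when it was set against LV-NC. For H/R-LV-NC over LV-NC the share was 4.41%, and 0 of the 3 member hairpins were among them. Of the 53 hairpins whose larger arm averaged at least 1000 CPM, 37.7% showed this in H/R-LV-BMAL1 over LV-NC, with a median log2 difference of 0.41. Of the same 53, 34.0% showed this in H/R-LV-BMAL1 over H/R-LV-NC, with a median log2 difference of 0.50. miR-106b did not: its 3p to 5p ratio was 17.93, 21.84 and 20.00 in H/R-LV-BMAL1, against 24.9, 17.6 and 18.97 in H/R-LV-NC. The LV-NC libraries had ratios of 14.67, 17.92 and 17.23, so that H/R-LV-BMAL1 lay just above LV-NC, with a log2 difference of the 5p to 3p ratio of -0.27 (exact permutation p = 0.1, adjusted p = 0.3).

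**Figure D3:**
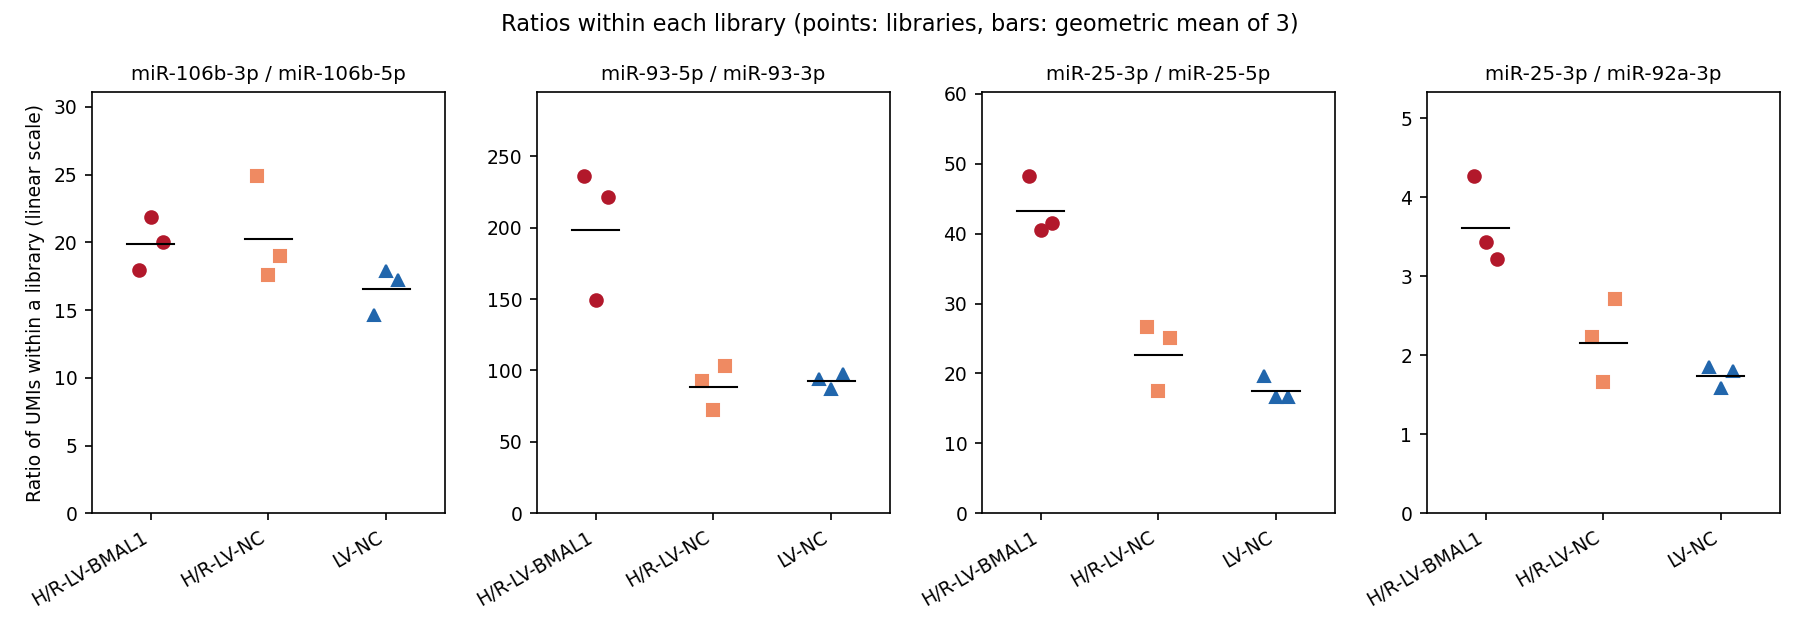
Ratios of UMIs within each library, from 0 on a linear scale; points are libraries and bars geometric means of 3. miR-93-5p/miR-93-3p, miR-25-3p/miR-25-5p and miR-25-3p/miR-92a-3p are above both other groups in all 3 H/R-LV-BMAL1 libraries, while miR-106b-3p/miR-106b-5p overlaps with H/R-LV-NC.

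The minor arms themselves read differently on each scale. With TMM, the log2 fold change of H/R-LV-BMAL1 over H/R-LV-NC was 0.080 for miR-93-3p (adjusted p = 0.901 by edgeR) and 0.13 for miR-25-5p (adjusted p = 0.815 by edgeR). With total UMIs miR-93-3p fell by 0.81 (adjusted p = 0.0295 by edgeR) and miR-25-5p fell by 0.76 (adjusted p = 0.0181 by edgeR). Of the 5 other arms of the member hairpins 4 could be tested, of which 0 were called with TMM and 3 fell with total UMIs, a scale on which 28.6% of all miRNAs were called lower. The rest of the X-linked cluster had 6 listed mature miRNAs, 4 of them tested, with 0 calls by TMM and 3 that fell with total UMIs. By TMM its miR-19b-2-5p had a log2 fold change of -1.05 (adjusted p = 0.109 by edgeR) and its miR-92a-2-5p of -0.78 (adjusted p = 0.168 by edgeR). Its miR-19b-3p, at a log2 fold change of 1.32 (adjusted p = 0.0603 by edgeR), and its miR-92a-3p cannot be assigned to it, because the miR-17-92 cluster yields the same mature miRNAs.

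Within miR-106b-25, miR-93-5p took 57.9% to 65.9% of the cluster's UMIs, miR-25-3p 31.0% to 37.4% and miR-106b-3p 1.92% to 2.67% over the 9 libraries. miR-93-5p outnumbered miR-106b-5p by 386 to 688 times although both lie in one primary transcript, and miR-25-3p stood at 0.471 to 0.646 of miR-93-5p. For H/R-LV-BMAL1 over H/R-LV-NC the log2 differences of the ratios between members were 0.15 for miR-93-5p/miR-106b-5p (exact permutation p = 0.6), -0.021 for miR-25-3p/miR-106b-5p (exact permutation p = 1) and -0.17 for miR-25-3p/miR-93-5p (exact permutation p = 0.2). The cluster's 6 arms together took 4.51% to 5.12% of all UMIs in H/R-LV-BMAL1 libraries, 3.44% to 4.26% in H/R-LV-NC libraries and 3.51% to 4.00% in LV-NC libraries.

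Measured against its seed family, miR-93-5p was dominant in every group. It took 93.9% to 95.8% of the UMIs of the 7 listed miRNAs with the miR-17 seed, and its excess over miR-20a-5p, the next of them, was 19.6 to 30.7 times. miR-20a-5p, of the miR-17-92 cluster, was the relative that passed the test. It had 1153, 1736 and 2234 CPM scaled by TMM in H/R-LV-BMAL1, against 804, 530.0 and 649 CPM in H/R-LV-NC, and rose by 1.37 on the log2 scale (SE 0.309, adjusted p = 0.0455 by edgeR). edgeR did not call it with RLE or upper quartile scaling, with no filter, with only the 2 groups, with the replicate block, or when any library other than H/R-LV-BMAL1 replicate 1 was left out. With limma-voom its adjusted p was 0.0415 and with DESeq2 0.000411, and with total UMIs miR-20a-5p rose by 0.49 (adjusted p = 0.0323 by edgeR). miR-17-5p had a log2 fold change of 1.15 (adjusted p = 0.0825 by edgeR). The ratio of miR-93-5p to miR-20a-5p overlapped between H/R-LV-BMAL1 and H/R-LV-NC, with a log2 difference of -0.15 (exact permutation p = 0.4). Of the 12 mature miRNAs of miR-17-92, 11 were tested and 1, miR-20a-5p, was called, against 2.38% of all miRNAs. miR-20a-5p averaged 1026 CPM of total UMIs, and of the 81 abundant miRNAs edgeR called 21 higher and 0 lower with TMM. The 11 had a median log2 fold change of 0.68 with TMM, which turned to -0.20 with total UMIs, where 1 rose and 2 fell. The ratio of miR-106b-5p to miR-17-5p was 0.200, 0.278 and 0.212 in H/R-LV-NC, against 0.158, 0.165 and 0.186 in LV-NC, with no overlap (exact permutation p = 0.1, adjusted p = 0.3). The share of other ratios without overlap was not counted. With TMM miR-106b-5p overlapped between these groups (log2 fold change -0.43). miR-17-5p was lower in H/R-LV-NC without overlap, as were 6.36% of all miRNAs, at -0.81 (adjusted p = 0.645 by edgeR).

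The miR-25 seed family differed in its makeup. miR-25-3p took 75.9% to 80.7% of the UMIs of the 6 listed miRNAs with this seed in H/R-LV-BMAL1 libraries, 61.8% to 72.5% in H/R-LV-NC libraries and 60.8% to 64.4% in LV-NC libraries. The remainder was mostly miR-92a-3p, of the miR-17-92 and miR-106a-363 clusters. The ratio of miR-25-3p to miR-92a-3p was 4.27, 3.44 and 3.22 in H/R-LV-BMAL1, against 2.23, 1.66 and 2.71 in H/R-LV-NC. The LV-NC libraries had ratios of 1.86, 1.59 and 1.80. Every H/R-LV-BMAL1 library was above every other library, by 1.68-fold on average over H/R-LV-NC (log2 difference 0.75, exact permutation p = 0.1, adjusted p = 0.3). How many other pairs of miRNAs lack overlap was not counted. With TMM miR-25-3p had a log2 fold change of 0.98 over H/R-LV-NC, beside a median of 1.01 for the 81 abundant miRNAs, so miR-92a-3p was the one of the pair away from that median. The family as a whole overlapped between the groups, at 1.94% to 2.09% of all UMIs in H/R-LV-BMAL1 libraries, 1.90% to 2.32% in H/R-LV-NC libraries and 1.93% to 2.17% in LV-NC libraries. The miR-17 seed family took 2.93% to 3.53% in H/R-LV-BMAL1 libraries, above the 2.20% to 2.60% in H/R-LV-NC libraries and the 2.22% to 2.54% in LV-NC libraries. As miR-93-5p made up 93.9% to 95.8% of that family, this largely repeats the result for miR-93-5p as CPM of total UMIs. Of the 4 other miRNAs with the miR-25 seed 3 were tested and 0 were called with TMM, where miR-92a-3p had a log2 fold change of 0.32 (adjusted p = 0.559 by edgeR). With total UMIs miR-92a-3p fell by 0.57 (adjusted p = 0.0228 by edgeR).

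**Figure D4:**
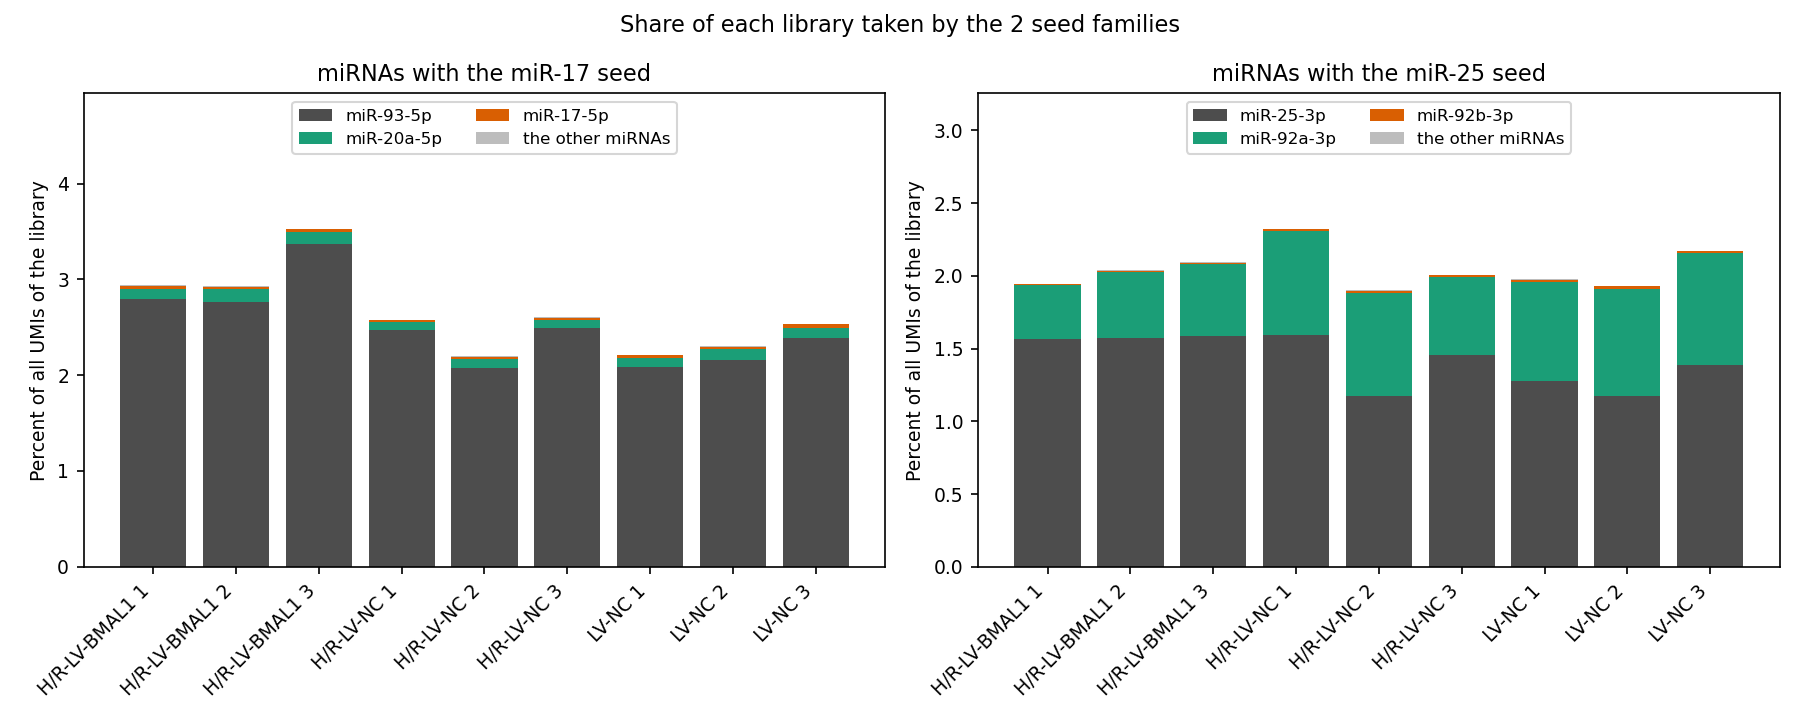
Percent of all UMIs of each library taken by miRNAs with the miR-17 seed (left panel) and with the miR-25 seed (right panel), stacked by miRNA. The miR-17 seed bars are highest in H/R-LV-BMAL1 at 2.93% to 3.53%, while the miR-25 seed bars overlap in height between the groups and the miR-92a-3p part is smallest in H/R-LV-BMAL1.

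A shared profile over the 9 libraries, taken as the mean of miR-106b-5p, miR-93-5p and miR-25-3p on the TMM scale, was close to that of several other miRNAs. Of 699 tested miRNAs with a mean of at least 50 UMIs, those with the smallest root mean square log2 difference from it were miR-130a-3p (0.071), miR-148a-3p (0.094), miR-16-5p (0.096), miR-15b-5p (0.11) and miR-345-3p (0.12), against a median of 0.66. The same 5 were nearest with total UMIs. Of the members that are not part of that mean, miR-106b-3p differed by 0.16, miR-20b-5p by 0.58 and miR-106a-5p by 0.92. The likeness is over 9 libraries that share depth and scaling and is given as a description.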

How the data were processed

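Exosomal small RNA of 9 libraries, 3 for each of 3 groups assigned from the labels, was made into libraries with the QIAseq miRNA kit. The authors deposited UMI counts for 1978 mature miRNAs and, beside them, CPM, which equal the UMI count over its library's total (per 1000000, largest difference 3.3e-10). Tools named in the submitters' notes on processing are cutadapt 2.7, Bowtie 1.3.0 and edgeR without a version. No source used here gives the genome build. Of the per-sample columns, 0 were left unused.

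UMI counts were analysed with edgeR 4.0.16 in R 4.3.3. filterByExpr kept 1682 miRNAs and removed 296, among them miR-363-3p. After TMM scaling, 1 quasi-likelihood fit took all 9 libraries (common dispersion 0.17, 5.28 prior degrees of freedom), with Benjamini-Hochberg adjustment over all tested miRNAs and a call at an adjusted p under 0.05. All 10 ratios used a pseudocount of 0.5 for differences on the log2 scale and exact two-sided permutation tests. The SEs given with edgeR values were derived from its test, as the size of the unshrunk log2 fold change over the square root of the F statistic. The 95% intervals are t intervals of that SE around the log2 fold change that edgeR reports. Intervals for single libraries are exact (Clopper-Pearson, 95%).

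The alternatives were RLE, total UMI and upper quartile scaling, filters at a mean of at least 50 UMIs or none, DESeq2 1.42.0, limma-voom (limma 3.58.1), only the 2 groups compared, a replicate block, a ratio pseudocount of 2, and leaving out each library. The fits were tested on simulated data.

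The text names the 7 members, the other arms of their hairpins, their cluster neighbours and seed relatives, and the 5 miRNAs nearest in profile. Members and lists were chosen with earlier results of these data known. The counts over 589 hairpins and over miRNAs of at least 1000 CPM were added after the data had been seen. RefSeq held a mature sequence for 1679 of the 1978 miRNAs and for all 7 members. Gene annotation is GENCODE M21. Further software was scipy 1.17.1, numpy 2.4.6, pandas 2.3.3 and matplotlib 3.10.9, run in Python 3.11.15.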

Additional observations from a re-analysis of the deposited data

How the results depend on the processing

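For H/R-LV-BMAL1 over H/R-LV-NC the number of miRNAs called by edgeR, 40 in the fit reported, was 0 with RLE, 0 with upper quartile scaling, 0 with no filter, 0 with only the 2 groups, 0 with the replicate block, 72 with a mean of at least 50 UMIs, 519 with total UMIs and 0 to 139 with 1 library left out. It was 58 with limma-voom and 248 with DESeq2. Members called were 1 with total UMIs, 4 with DESeq2 and 0 to 3 with 1 library left out. The median log2 fold change of the 4 miR-106b-25 members was 0.19 with total UMIs. Between H/R-LV-NC and LV-NC, miRNAs called were 1 with total UMIs, 2 with DESeq2 and 0 to 1 with 1 library left out, the 1 without H/R-LV-NC replicate 2. Between H/R-LV-BMAL1 and LV-NC, with 4 called in the fit reported, they were 105 with total UMIs, 3 with RLE, 2 with upper quartile scaling, 2 with no filter, 10 with a mean of at least 50 UMIs, 146 with DESeq2, 5 with limma-voom, 1 with only the 2 groups, 3 with the replicate block and 0 to 66 with 1 library left out, the 66 without H/R-LV-BMAL1 replicate 1. Members called were 1 with total UMIs and 1 with DESeq2, and the median was 0.32 with total UMIs. The cause of these shifts was not tested.

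Among the members, signs turned only for values not called at an adjusted p under 0.05, though miR-20b-5p had an unadjusted p of 0.047 with total UMIs (edgeR, H/R-LV-BMAL1 over H/R-LV-NC). Outside the members this did not hold. For H/R-LV-BMAL1 over H/R-LV-NC, miR-92a-3p, miR-93-3p and miR-25-5p were positive with TMM, and with total UMIs they were negative and called. With total UMIs, H/R-LV-BMAL1 over H/R-LV-NC gave -0.46 for miR-106a-5p and -0.81 for miR-20b-5p (-0.023 with limma-voom). On the same scale H/R-LV-NC over LV-NC gave 0.17 for miR-106b-3p (0.011 with a mean of at least 50 UMIs), 0.085 for miR-93-5p, 0.14 for miR-25-3p and 0.031 for miR-20b-5p. With 1 library left out, H/R-LV-BMAL1 over H/R-LV-NC ranged from -0.004 to 0.67 for miR-106a-5p and from -0.25 to 0.29 for miR-20b-5p. H/R-LV-NC over LV-NC ranged from -0.44 to 0.14 for miR-106b-3p, from -0.41 to 0.056 for miR-93-5p and from -0.41 to 0.15 for miR-25-3p, and H/R-LV-BMAL1 over LV-NC from -0.54 to 0.008 for miR-20b-5p. Ratio differences of H/R-LV-BMAL1 over H/R-LV-NC that turned were those of miR-106b-5p/miR-106b-3p (-0.009 with a pseudocount of 2, -0.13 to 0.12 with 1 library left out), miR-25-3p/miR-106b-5p (0.008 and -0.20 to 0.10), miR-93-5p/miR-106b-5p (-0.006 to 0.23) and miR-106b-5p/miR-17-5p (-0.22 to 0.017). For H/R-LV-NC over LV-NC they were those of miR-93-5p/miR-93-3p (-0.18 to 0.075) and miR-25-3p/miR-93-5p (-0.007 to 0.090). With 1 library left out, the differences between H/R-LV-BMAL1 and H/R-LV-NC were 1.02 to 1.37 for miR-93-5p/miR-93-3p, 0.74 to 1.05 for miR-25-3p/miR-25-5p and 0.56 to 0.91 for miR-25-3p/miR-92a-3p.

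Same-numbered libraries of H/R-LV-BMAL1 and H/R-LV-NC had correlations of -0.156, -0.11 and 0.132 of their deviations from the group means, so the numbers were not taken as pairs. With the replicate block, 0 members were called in any of the 3 comparisons. With 2 to 27 UMIs a library, depth limits the X-linked members.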

Other observations

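Summed levels of 3 of the 5 cell type marker lists separated H/R-LV-BMAL1 from H/R-LV-NC as CPM of total UMIs, and their part in the results for miR-93-5p and miR-25-3p was not tested. On this scale 44.2% of all miRNAs had every H/R-LV-BMAL1 library below every H/R-LV-NC library, and 4.76% had every one above. The 6 blood markers summed to 176 to 238 CPM of total UMIs in H/R-LV-BMAL1 libraries, 379 to 503 CPM in H/R-LV-NC libraries and 350.2 to 444 CPM in LV-NC libraries, with miR-144-3p at 0 in at least 1 library. With TMM 0 of the 5 blood markers tested separated H/R-LV-BMAL1 from H/R-LV-NC. The 2 endothelial markers, both arms of miR-126a, summed to 634 to 995 CPM in H/R-LV-BMAL1 libraries, 358 to 548 CPM in H/R-LV-NC libraries and 383 to 399.8 CPM in LV-NC libraries. The 9 tubule and epithelial markers, mostly miR-30a-5p, summed to 9711 to 11257 CPM in H/R-LV-BMAL1 libraries, 6819 to 7003 CPM in H/R-LV-NC libraries and 5788 to 8672 CPM in LV-NC libraries. Of the 7 of them tested, 3 had a positive log2 fold change of H/R-LV-BMAL1 over H/R-LV-NC with total UMIs. On that scale 2 of the 7 had every H/R-LV-BMAL1 library above every H/R-LV-NC library, and 2 had every one below. The 3 muscle markers summed to 2901 to 3103 CPM in H/R-LV-BMAL1 libraries, 2405 to 3197 CPM in H/R-LV-NC libraries and 2438 to 2620.0 CPM in LV-NC libraries, and the 1 liver marker, miR-122-5p, had 81.8 to 105 CPM in H/R-LV-BMAL1 libraries, 54.5 to 115 CPM in H/R-LV-NC libraries and 116 to 176 CPM in LV-NC libraries.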
